A study of Mus musculus with 57 samples.

Results

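The 34 genes described here are interferon-stimulated genes, listed by symbol as a probe for innate sensing of mitochondrial nucleic acids in fat that carries a mutant mitofusin. All 34 were found by symbol among the 52853 genes of the deposited count tables. The list was chosen with earlier results of these data known, but no expression value enters the rule. Tissue came from male mice on a C57BL/6J background, either wild type (WT) or homozygous knock-in (KI) for R707W in the endogenous Mfn2 gene. The KI allele also carries a silent base change that makes an EcoRV site, the line goes back to 1 CRISPR-Cas9 founder, and the mutation is present in every cell. The 6 groups were inguinal white adipose tissue (IngWAT) from chow-fed WT mice (n = 7) and KI mice (n = 6), IngWAT from high-fat diet (HFD)-fed WT mice (n = 8) and KI mice (n = 8), and brown adipose tissue (BAT) from HFD-fed WT mice (n = 6) and KI mice (n = 6). Diets began at 5 weeks of age and lasted 6 months, and the HFD supplied 45% of its energy as fat. In IngWAT on HFD each mouse had 2 technical libraries, which were deposited as 1 column per mouse. Polyadenylated RNA was sequenced, and the mice had 8042591 to 25680411 counts each.

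Interferons are secreted when nucleic acids are sensed in the wrong compartment. Cytosolic DNA, including DNA that leaks from mitochondria, is detected by the enzyme cGAS, and double-stranded RNA by the receptors RIG-I and MDA5, which signal through MAVS on the mitochondrial outer membrane. Secreted type I interferon binds its receptor on the same and on neighbouring cells and activates transcription factors, STAT2 and IRF9 among them. These bind the interferon-stimulated response element in promoters and switch on the genes listed here, which encode sensors, transcription factors and antiviral effectors.

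The response element is visible in the members' own promoters. The core searched was GAAANNGAAA, or TTTCNNTTTC on the other strand, and overlapping matches were counted separately. RefSeq promoters (assembly GRCm38.p6, 250 bases before to 50 after each start) were at hand for 25 of the 34 members, and 13 of these 25 (52%) held the core, against 1079 of 27025 genes (3.99%) in the whole table. Shown here are the stretches around the cores of 4 members whose values are given mouse by mouse below, 5′ to 3′ on the gene's strand with the cores in capitals and all bases upstream of the gene's annotated start in the deposited tables.
Rsad2, chr12:26456523-26456612, minus strand: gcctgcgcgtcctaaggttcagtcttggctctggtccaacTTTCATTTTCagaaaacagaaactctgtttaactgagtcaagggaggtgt
Ifit1, chr19:34640745-34640853, plus strand: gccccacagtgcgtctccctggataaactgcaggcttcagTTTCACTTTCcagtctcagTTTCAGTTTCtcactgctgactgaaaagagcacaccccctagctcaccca
Gbp3, chr3:142559959-142560025, plus strand: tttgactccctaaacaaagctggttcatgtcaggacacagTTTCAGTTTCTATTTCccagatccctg
Bst2, chr8:71537547-71537642, minus strand: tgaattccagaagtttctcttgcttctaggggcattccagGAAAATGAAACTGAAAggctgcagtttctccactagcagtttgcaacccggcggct
Rsad2 held 1 core, which begins 120 bases before the RefSeq start. Ifit1 held 2 cores set apart from each other, and Gbp3 and Bst2 each held 2 cores that overlap. Of the other members with values by mouse, Gbp2 also held 1 core, while Cmpk2, Ifi44, Oasl1, Oasl2, Ifi35 and Ifit2 held none in this window. Rtp4, Mx1, Mx2, Zbp1, Oas2 and Parp9 had no entry. A match is a description of the letters, and no match says nothing about binding.

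Adipocyte markers (Adipoq, Plin1, Cidec and Fabp4) summed to between 15160 and 32712 CPM in every mouse, CPM being counts normalised to the size of the library, and brown adipocyte markers to between 9229 and 15833 CPM in BAT and at most 480 CPM in IngWAT. Mfn2 transcript itself was not lowered by the edit. Its level in IngWAT on HFD averaged 160 ± 20.7 CPM (SD) for WT and 202 ± 25.8 CPM for KI mice, and the change was not called in any of the 3 comparisons (log2 fold changes 0.29 to 0.36, adjusted p 0.0114 to 0.113). Summed B cell markers were above 50 CPM, against medians of 5.49 to 9.37 CPM, in 7 IngWAT mice, namely 2 WT and 2 KI on chow and 2 WT and 1 KI on HFD. Skeletal muscle markers reached 43407 CPM in 1 chow-fed KI mouse (number 4). The genotype comparisons in IngWAT were fitted with and without these mice. The diet and depot comparisons were not refitted without them as a set.

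Per length of transcript, the members covered a wide range of levels. Bst2, which encodes the membrane tether that holds budding virus on the cell surface, was the highest in every group and averaged 75.6 ± 11.3 CPM per kb (SD, n = 8) in WT IngWAT on HFD. Gbp2, a guanylate-binding GTPase, came next there at 39.2 ± 5.85 CPM per kb, then Ifi35, a partner of NMI, at 26.3 ± 4.08 CPM per kb. The levels of Gbp2 and Ifi35 differed by more than either spread. At the low end stood Ifi44 (0.754 ± 0.237 CPM per kb), Mx1 (0.922 ± 0.561) and Oas3 (0.139 ± 0.0711), and Ifi44 and Mx1 did not differ beyond their spread. Oas3 was lowest in all 6 groups. Mice of a group differed least on HFD in IngWAT, where the median coefficient of variation of the members was 18.1% in WT and 17.1% in KI mice, and most in chow-fed WT mice at 41.1%.

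In IngWAT from HFD-fed mice, 7 interferon-stimulated genes were lower in KI than in WT mice, and no member was called higher. A gene was called when its adjusted p was below 0.01 (edgeR's quasi-likelihood test with Benjamini-Hochberg adjustment over all genes tested). All 34 members were tested, 31 had a log2 fold change below 0 and 7 were called lower, while 5.24% of all 16471 genes tested were called lower and 6.21% higher. At an unadjusted p below 0.05, 20 members were lower and 2 higher, beside 15.1% of all genes lower and 17.8% higher. The called members were Rsad2, Ifi44, Mx2, Cmpk2, Rtp4, Oasl2 and Gbp3, with log2 fold changes from −0.96 to −0.36, or 48.6% to 22.2% less transcript. The median log2 fold change of the members was −0.34, beside 0.01 over all genes tested. In bulk tissue, fewer cells of a type and less RNA per cell cannot be told apart. The cumulative plot of fold changes shows the members' curve to the left of the curve of all genes.

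**Figure D1:**
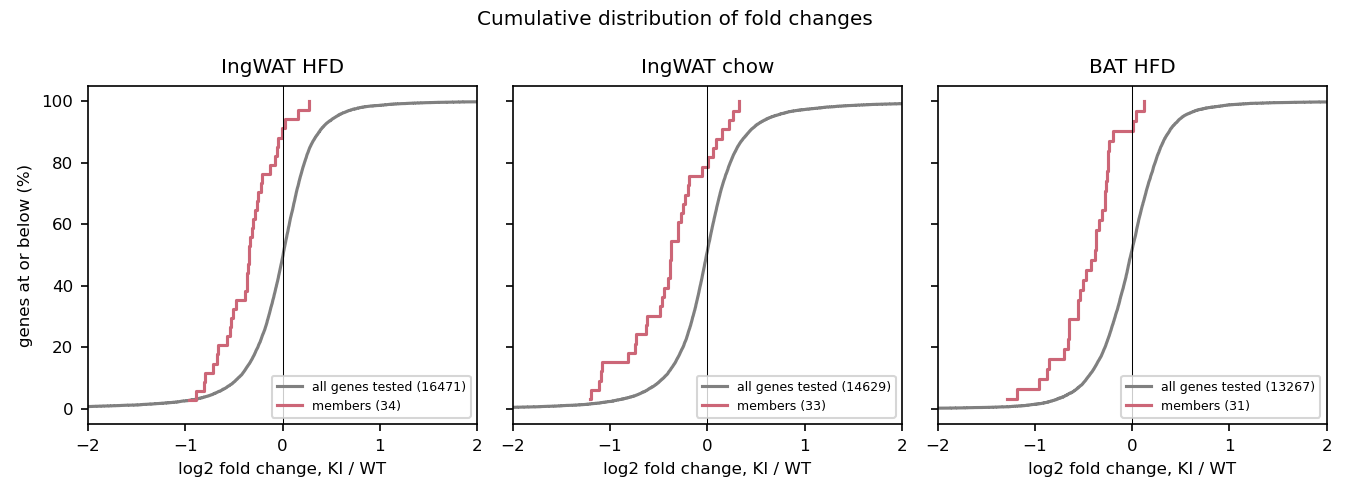
Cumulative distribution of the log2 fold change of KI against WT mice for all genes tested (grey) and for the members (red) in the 3 comparisons, with the share of genes at or below each value in percent on the vertical axis and values beyond −2 and 2 not drawn. The members' median lies at −0.34 in IngWAT on HFD, −0.38 in IngWAT on chow and −0.38 in BAT on HFD, beside 0.01, −0.01 and −0.01 for all genes.

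Among the effectors, Rsad2 showed the largest fall of the 34 members. It encodes viperin, a radical SAM enzyme that makes a chain-terminating nucleotide. WT mice ranged from 22.5 to 38.0 CPM with a median of 30.7 CPM, and KI mice from 10.1 to 19.3 CPM with a median of 15.99 CPM. Every KI mouse lay below every WT mouse. The log2 fold change was −0.96 ± 0.13 (SE, adjusted p = 4.21e-05, exact permutation p = 0.000155, the smallest that 8 against 8 mice allow). Groups without overlap were found for 3 of the 34 members, all lower in KI mice, and for 2.43% of all genes tested in this direction and 2.09% in the other.

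Cmpk2, the mitochondrial kinase of UMP and CMP, is the divergent neighbour of Rsad2 on chromosome 12, and the starts of both genes lie 12752 bases apart. In WT mice it spanned 15.0 to 28.1 CPM with a median of 17.9 CPM, and in KI mice 9.34 to 12.8 CPM with a median of 11.9 CPM. The genotypes did not overlap for this gene either. Its log2 fold change was −0.71 ± 0.12 (SE, adjusted p = 0.000319, exact permutation p = 0.000155). The neighbours thus moved in the same direction in IngWAT on HFD, by 48.6% and 38.9%.

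Rtp4, a Golgi chaperone of G protein-coupled receptors, was the third member without overlap. It spanned 20.3 to 32.6 CPM in WT mice (median 25.5), while KI mice had 12.9 to 19.8 CPM (median 15.0). This was a log2 fold change of −0.67 ± 0.11 (SE, adjusted p = 0.000174, exact permutation p = 0.000155). According to GENCODE vM21, 13.9% of its exon bases are shared with Gm45338 on the same strand.

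Mx2 belongs to the dynamin-like GTPases, and the deposited annotation lists it as a polymorphic pseudogene in this strain. WT mice ranged from 3.84 to 6.28 CPM (median 5.30) and KI mice from 2.44 to 4.18 CPM (median 2.77). KI mouse 4 reached into the WT range, and the other 7 KI mice lay below all WT mice. On the log2 scale it changed by −0.80 ± 0.14 (SE, adjusted p = 0.000497, exact permutation p = 0.000311). Its paralogue Mx1 averaged 3.49 ± 2.12 CPM for WT and 2.35 ± 2.92 CPM for KI mice (SD over 8 mice), and its log2 fold change of −0.53 ± 0.54 (SE) was not called. Mx1 was highest in the mice high in B cell markers, namely WT mice 2 and 6 (7.05 and 6.17 CPM) and KI mouse 2 (9.45 CPM).

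Ifi44, a cytoplasmic interferon-induced protein, was found at 3.01 to 6.74 CPM in WT mice (median 4.44) and at 1.35 to 3.26 CPM in KI mice (median 2.67). The KI mice lay below the lowest WT mouse in 7 of 8 cases. On the log2 scale the change was −0.89 ± 0.21 (SE, adjusted p = 0.00475, exact permutation p = 0.000622). The call was lost when any of 5 single mice was left out, with a log2 fold change between −0.96 and −0.80 over all 16 such fits.

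The OAS family makes oligoadenylates that activate RNase L, and its OASL members modulate the response itself. Oasl2 was called. WT mice ranged from 18.2 to 35.3 CPM (median 22.7) and KI mice from 14.4 to 20.8 CPM (median 15.3), and 7 of 8 KI mice lay below all WT mice. A log2 fold change of −0.57 ± 0.12 (SE, adjusted p = 0.00263, exact permutation p = 0.000932) resulted. Oasl1, known in mice as a brake on Irf7 translation, ranged from 2.69 to 6.59 CPM in WT mice (median 4.89) and from 1.56 to 5.52 CPM in KI mice (median 2.10). KI mice 4 and 5 stood inside the WT range and the other 6 below it. Its log2 fold change of −0.81 ± 0.28 (SE) did not pass the threshold (adjusted p = 0.0439, exact permutation p = 0.0104), but did when KI mouse 5 was left out (−1.05, adjusted p = 0.00514). Oas1a, Oas3 and Oas2 had log2 fold changes of −0.48, −0.30 and −0.04, none of them called.

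All 3 guanylate-binding proteins, GTPases that attack the membranes around intracellular pathogens, had lower means in KI mice. Gbp3 was called, with 40.1 to 59.99 CPM in WT mice (median 48.0) and 30.2 to 45.0 CPM in KI mice (median 37.2). The ranges overlapped, and all 8 KI mice lay below the WT median. Its log2 fold change was −0.36 ± 0.09 (SE, adjusted p = 0.00679, exact permutation p = 0.00109), and the call held in 6 of the 16 fits with 1 mouse left out. Gbp2 (−0.38) and Gbp7 (−0.34) had similar log2 fold changes without being called (adjusted p = 0.0171 and 0.0712). These paralogues lie side by side on chromosome 3 and share sequence, and how the authors' counting treated reads that fit several of them is not given in the sources used here.

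The transcription factors that carry the interferon signal had small negative log2 fold changes in IngWAT on HFD, and none of the 4 was called. Stat2 had a log2 fold change of −0.37 ± 0.11 (SE, adjusted p = 0.0287), Irf7 of −0.35 ± 0.11 (adjusted p = 0.0343), Irf9 of −0.23 ± 0.11 and Irf1 of −0.08 ± 0.11. Of the 3 nucleic acid receptors, Zbp1, which binds Z-form nucleic acids, had −0.67 ± 0.24 (SE, adjusted p = 0.0510), Dhx58, which encodes the RNA helicase LGP2, −0.31 ± 0.12, and Ifih1, which encodes MDA5, −0.06 ± 0.10. Zbp1 was called when KI mouse 2, which was high in B cell markers, was left out.

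The IFIT family, which binds foreign RNA ends, was not uniform. Ifit1, Ifit3b and Ifit3 had log2 fold changes of −0.55 (adjusted p = 0.0192), −0.33 and −0.28, none called. Ifit2 had the largest rise in value of all members. WT mice ranged from 11.6 to 17.1 CPM (median 15.3) and KI mice from 13.2 to 21.6 CPM (median 18.1), with 6 of 8 KI mice higher than the highest WT mouse. Its log2 fold change was 0.27 ± 0.10 (SE) and was not called (adjusted p = 0.0549, exact permutation p = 0.0207). Ifit3 and Ifit3b are near-identical copies, so their values are uncertain where reads fit both.

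The remaining members stayed under the threshold. In the ISG15 pathway, Herc6, the mouse ligase that attaches ISG15 to proteins, had a log2 fold change of −0.51 (adjusted p = 0.0252), Usp18, which removes it, −0.34, Isg15 itself −0.21 and Trim25, a ubiquitin ligase of the RIG-I pathway, −0.13. Of the ADP-ribosyltransferases, Parp14 had −0.26 (adjusted p = 0.0343). Parp9 ranged from 61.1 to 76.5 CPM in WT and from 62.6 to 89.4 CPM in KI mice, with a log2 fold change of 0.16 ± 0.07 (SE, adjusted p = 0.147). Bst2 ranged from 52.0 to 86.4 CPM in WT and from 61.8 to 79.2 CPM in KI mice, and its log2 fold change of 0.03 ± 0.09 (SE) changed sign when single mice were left out. Xaf1, an antagonist of the apoptosis inhibitor XIAP, had −0.25 (adjusted p = 0.0509) and Ifi35 less than 0.01 in size.

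**Figure D2:**
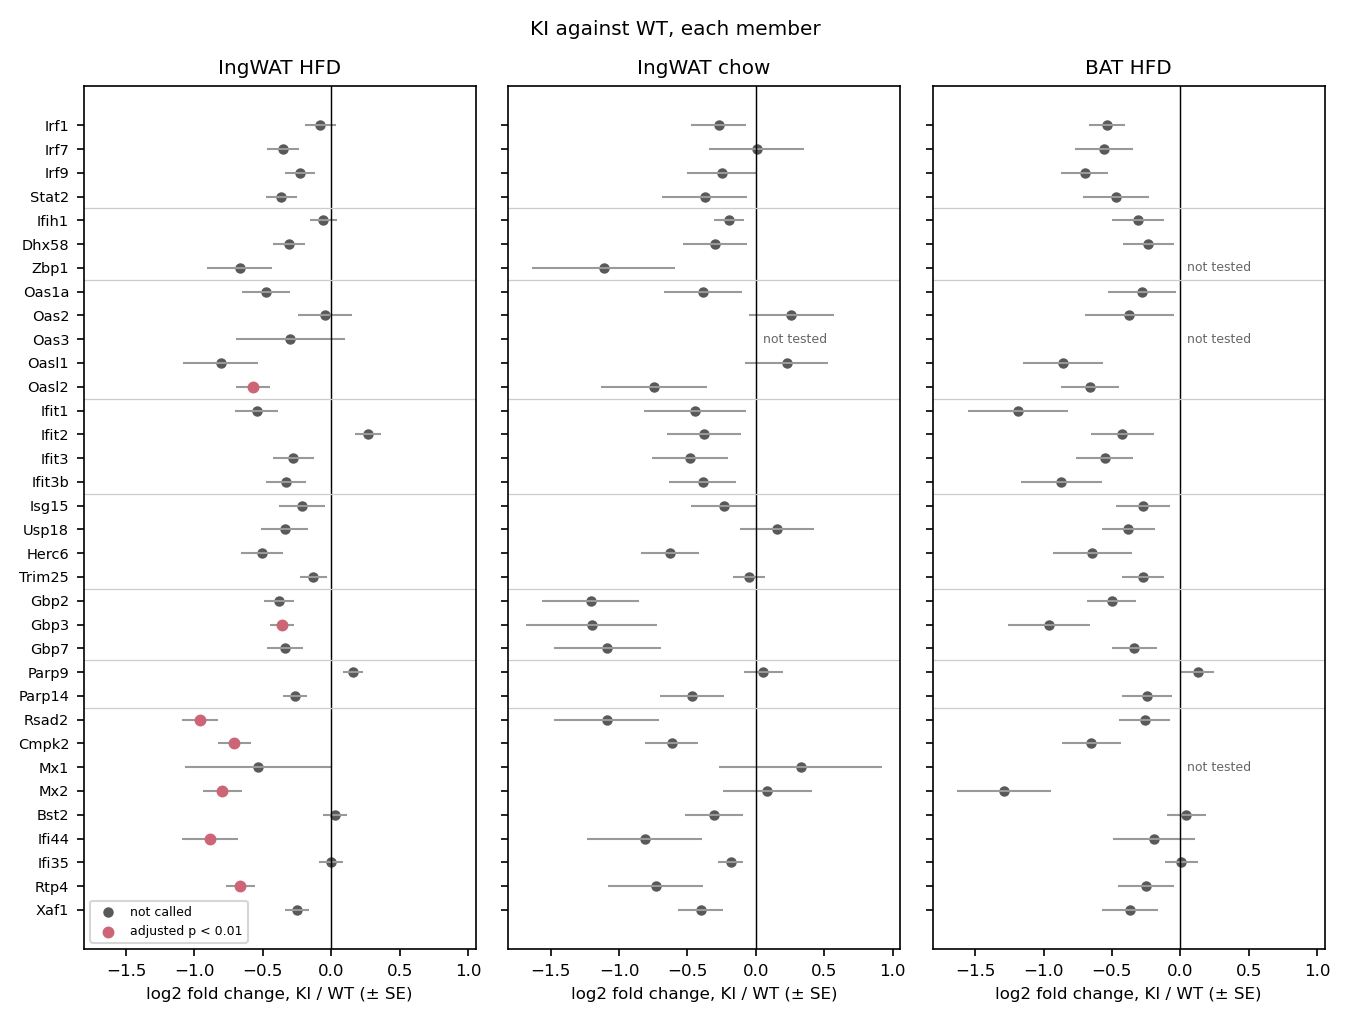
Log2 fold change of KI against WT mice (points, with SE as bars) of each of the 34 members in the 3 comparisons, grouped by role from top to bottom, with called members in red. In IngWAT on HFD 7 red points lie between −0.96 and −0.36, and there are no red points in the other 2 panels.

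With the 3 mice high in B cell markers left out (2 WT and 1 KI), 7 members were called, with Herc6 in place of Gbp3. Rsad2, Cmpk2, Rtp4, Mx2 and Oasl2 were called in all 16 fits with 1 mouse left out. One fit of all 6 groups, which shares the wider spread of the chow-fed mice, called only Rsad2 and Cmpk2. Shares of all genes called in these refits are not given here, so the counts show only how the calls move with the setting. Several other measures differed between the same 16 mice. The 13 mitochondrially encoded mRNAs summed to 42020 to 128284 CPM in WT and 16162 to 26167 CPM in KI mice, with no overlap. With these genes left out of the fit, 7 members were called, and the share of all genes called in that fit is not given here either. Fibroblast markers summed to 1256 to 2276 CPM in WT and 1034 to 1581 CPM in KI mice and 1 of 4 (Dpt) was called lower. All 4 had log2 fold changes below 0 (median −0.40), 3 of them at an unadjusted p below 0.05 in edgeR's test. Macrophage markers summed to 737 to 1253 CPM in WT and 554 to 1652 CPM in KI mice, and 0 of 7 were called or had an unadjusted p below 0.05 in edgeR's test, although all 7 had log2 fold changes below 0 (median −0.23). Of the natural killer cell markers, 1 of 3 tested (Ncr1) was called lower, and of the neutrophil markers 1 of 2 tested (S100a8). All 3 natural killer cell markers were below 0, 2 of them at an unadjusted p below 0.05 in edgeR's test. The other neutrophil marker was above 0 (0.17). Brown adipocyte markers summed to 8.24 to 18.7 CPM in WT and 16.6 to 41.6 CPM in KI mice, and 1 of 2 tested (Cidea) was called higher. The part of these cell types in the members' falls was not tested.

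**Figure D3:**
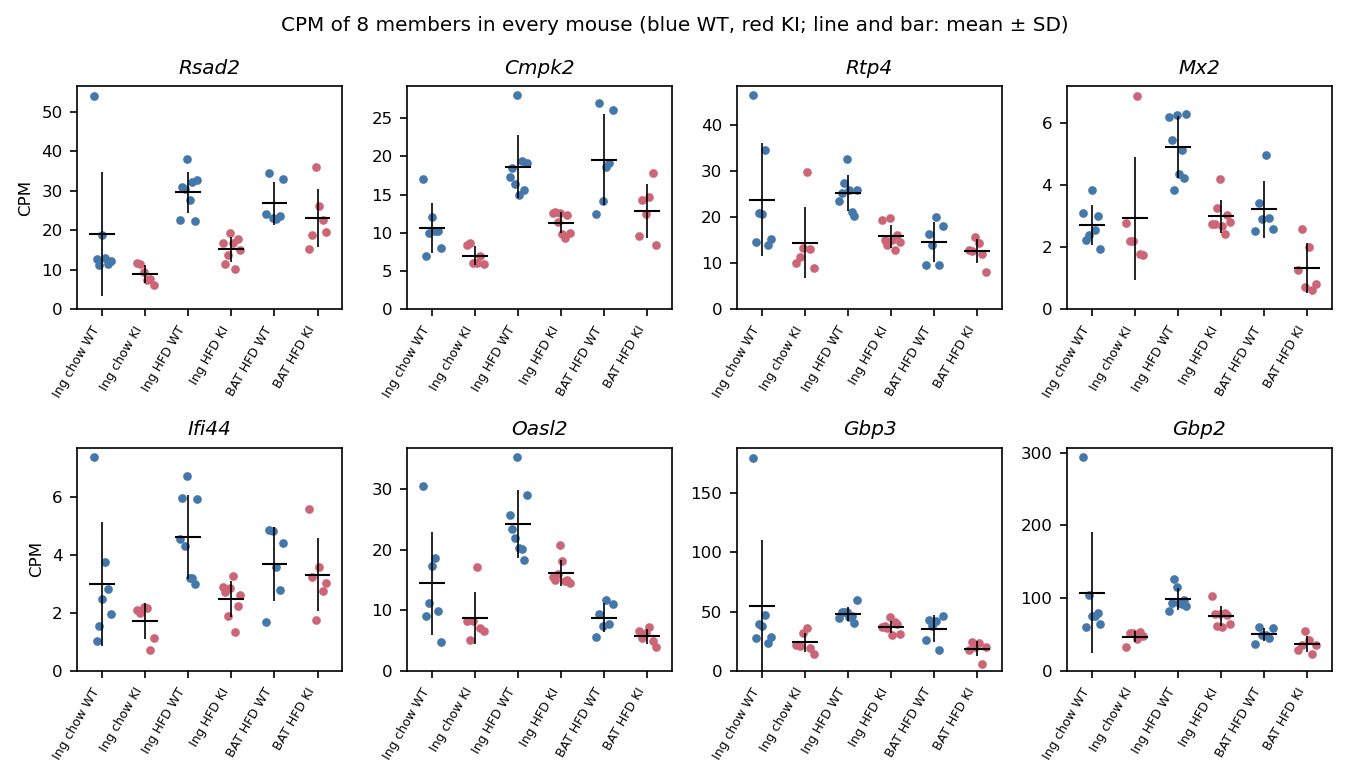
CPM in every mouse of the 7 members called in IngWAT on HFD and of Gbp2, in the 6 groups (blue WT, red KI, black line and bar the mean ± SD). For Rsad2, Cmpk2 and Rtp4 on HFD in IngWAT all 8 KI mice lie below all 8 WT mice, and for Gbp2 on chow all 6 KI mice lie below all 7 WT mice, of which mouse 1 reached 293 CPM.

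In IngWAT from chow-fed mice most members also had lower values in KI mice, but the spread between mice was wide and 0 of the 33 members tested were called. Oas3 was too low to be tested. The background was 1.27% of 14629 genes called lower and 1.96% called higher. Of the 33 members, 26 had a log2 fold change below 0, beside 51.2% of all genes, with a median of −0.38 beside −0.01 over all genes. At an unadjusted p below 0.05, 7 members were lower and 0 higher in edgeR's test, beside 11.5% of all genes lower and 12.8% higher, and DESeq2 called 1 member, Gbp2. WT mouse 1 was the highest of the 7 WT mice for 27 of the 34 members, and its summed B cell markers were 59.5 CPM. Without it the median of the members was −0.15. Without the 4 mice high in B cell markers (5 WT and 4 KI mice left) the median was −0.11, 22 of 32 members tested had a value below 0, and 0 were called. With the mouse high in muscle markers left out as well, the median was −0.33, 30 of 32 were below 0, and 1 was called. Shares of all genes called by DESeq2 and in these refits are not given here.

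The largest falls in value on chow were those of Gbp2, Gbp3 and Zbp1, none of them called, and this order changed without WT mouse 1. Gbp2 ranged from 60.3 to 293 CPM in WT mice (median 76.0) and from 32.5 to 53.4 CPM in KI mice (median 50.0). All 6 KI mice lay below all 7 WT mice, which held in this direction for 1.47% of all genes and for 1 of the 33 members tested. No member lay higher without overlap, beside 2.75% of all genes. Gbp2 had a log2 fold change of −1.21 ± 0.36 (SE, adjusted p = 0.0526, exact permutation p = 0.00117, the smallest that 7 against 6 mice allow). Without WT mouse 1 it was −0.72. Gbp3 ranged from 23.5 to 179 CPM in WT mice (median 38.1) and from 14.0 to 35.9 CPM in KI mice (median 21.4). The fit gave a log2 fold change of −1.20 ± 0.48 (SE, adjusted p = 0.142, exact permutation p = 0.0373), and −0.51 without WT mouse 1, which alone exceeded 50 CPM.

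Zbp1 ranged from 3.38 to 19.8 CPM in WT mice (median 6.98) and from 0.696 to 6.92 CPM in KI mice (median 3.04). All 6 KI mice lay below the WT median, and 3 of them below the lowest WT mouse. This gave a log2 fold change of −1.11 ± 0.52 (SE, adjusted p = 0.210, exact permutation p = 0.0548). Without WT mouse 1 it was −0.67. With the 4 mice high in B cell markers left out it was −1.04 and was not called (adjusted p = 0.279). With these 4 mice and the mouse high in muscle markers left out, it was −1.93 and was called (adjusted p = 0.00782, 5 WT and 3 KI mice). Rsad2 and Cmpk2, called on HFD, had log2 fold changes of −1.09 ± 0.38 and −0.62 ± 0.20 (SE) on chow, with adjusted p of 0.0940 and 0.0649.

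The 3 largest rises in value on chow each rested on 1 mouse. Mx1 ranged from 0.604 to 2.71 CPM in WT and from 0.298 to 5.25 CPM in KI mice, and its log2 fold change of 0.33 ± 0.60 (SE, adjusted p = 0.784) turned to −0.56 without KI mouse 3, which was high in B cell markers. Oas2 ranged from 6.11 to 16.6 CPM in WT and from 7.23 to 27.6 CPM in KI mice, and its log2 fold change of 0.26 ± 0.31 (SE, adjusted p = 0.658) turned to −0.05 without KI mouse 4. Oasl1 ranged from 1.84 to 3.32 CPM in WT and from 1.45 to 6.18 CPM in KI mice, and its log2 fold change of 0.23 ± 0.30 (SE, adjusted p = 0.695) turned to −0.12 without KI mouse 4. KI mouse 4 is the mouse with skeletal muscle markers, and it was the highest of the 6 KI mice for 20 of the 34 members. The part of muscle RNA in these values was not tested. Over the chow-fed mice, macrophage markers summed to 745 to 2563 CPM in WT and 612 to 1355 CPM in KI mice, and fibroblast markers to 1562 to 3251 CPM in WT and 1024 to 1574 CPM in KI mice, with 1 of 4 (Dpt) called lower. Of these 4 fibroblast markers, 3 were lower at an unadjusted p below 0.05 in edgeR's test and 1 was above 0. All 7 macrophage markers had values below 0 (median −0.47) and 0 were called, with 1 lower at an unadjusted p below 0.05 in edgeR's test. Brown adipocyte markers did not overlap, with 14.9 to 55.8 CPM in WT and 75.6 to 480 CPM in KI mice, and 1 of 2 tested was called higher. Of 4 endothelial markers, 3 were lower at an unadjusted p below 0.05 and 0 were called. The part of these cell types was not tested either.

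**Figure D4:**
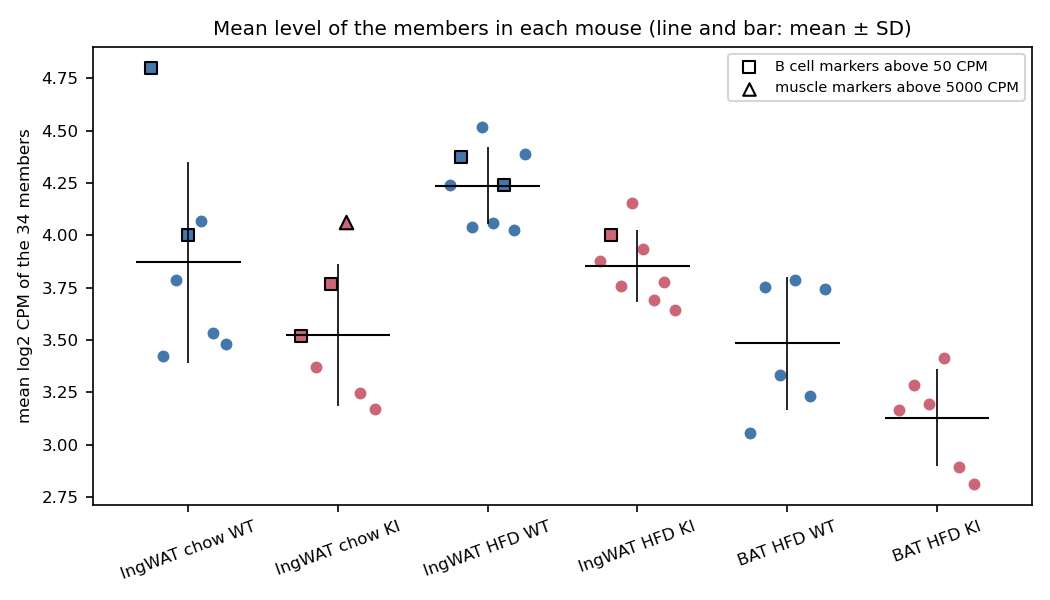
Mean log2 CPM of the 34 members in each of 41 mice by group (line and bar the group mean ± SD), with squares for mice whose B cell markers exceeded 50 CPM and a triangle for the mouse whose muscle markers exceeded 5000 CPM. Chow-fed WT mouse 1 stands highest of all mice at 4.80, and chow-fed KI mouse 4 highest of its group at 4.06.

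In BAT from HFD-fed mice the members were again lower in value, and 0 of the 31 tested were called by edgeR's test. Zbp1, Oas3 and Mx1 were too low to be tested there. BAT had 6 against 6 mice at 8042591 to 10522554 counts each. IngWAT on HFD had 8 against 8 at 17572752 to 25680411, so the numbers of calls in these 2 comparisons cannot be set side by side. The background in BAT was 0.475% of 13267 genes called lower and 1.36% called higher. Of the 31 members, 28 had a log2 fold change below 0, and the median was −0.38 beside −0.01 over all genes. At an unadjusted p below 0.05, 13 members were lower and 0 higher, beside 11.7% of all genes lower and 12.8% higher. DESeq2 called 2, Irf1 and Irf9, and the share of all genes it called is not given here. No member had groups without overlap, beside 1.05% of all genes lower and 2.64% higher.

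Mx2 showed the largest fall in value in BAT. WT mice ranged from 2.53 to 4.97 CPM (median 2.92) and KI mice from 0.609 to 2.59 CPM (median 1.03), and 5 of 6 KI mice lay below all WT mice. Its log2 fold change was −1.29 ± 0.34 (SE, adjusted p = 0.0329, exact permutation p = 0.00649). Ifit1 ranged from 2.66 to 9.74 CPM in WT mice (median 6.58) and from 1.37 to 4.05 CPM in KI mice (median 3.07), with a log2 fold change of −1.19 ± 0.37 (SE, adjusted p = 0.0605, exact permutation p = 0.0368). All 6 KI mice lay below the WT median for both genes.

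Gbp3 in BAT ranged from 17.4 to 46.1 CPM in WT mice (median 40.1) and from 6.09 to 24.1 CPM in KI mice (median 20.4), with a log2 fold change of −0.96 ± 0.30 (SE, adjusted p = 0.0690, exact permutation p = 0.0238). All 4 transcription factors had negative values in BAT, with Irf9 at −0.70 ± 0.17 (SE, adjusted p = 0.0247), Irf7 at −0.56, Irf1 at −0.53 ± 0.13 (adjusted p = 0.0233) and Stat2 at −0.47. All 4 IFIT genes did too, from −1.19 to −0.42. The 3 largest rises were close to 0. Parp9 ranged from 24.6 to 40.3 CPM in WT and from 29.7 to 40.99 CPM in KI mice, with a log2 fold change of 0.13 ± 0.12 (SE). Bst2 ranged from 78.3 to 113 CPM in WT and from 83.3 to 126 CPM in KI mice, with 0.04 ± 0.14, and Ifi35 from 42.01 to 56.4 CPM in WT and from 42.2 to 61.6 CPM in KI mice, with 0.01 ± 0.12. None of these 3 was called (adjusted p = 0.555, 0.883 and 0.981), and the values of Bst2 and Ifi35 changed sign when single mice were left out.

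Mitochondrially encoded mRNAs in BAT summed to 135001 to 218745 CPM in WT and 94138 to 136260 CPM in KI mice. Macrophage markers summed to 217 to 654 CPM in WT and 247 to 407 CPM in KI mice, and 0 of 7 were called or had an unadjusted p below 0.05 in edgeR's test. Of the 7, 6 had log2 fold changes below 0 and 1 above (median −0.33). Fibroblast markers summed to 305 to 694 CPM in WT and 193 to 308 CPM in KI mice, with 1 of 4 (Dpt) called lower. All 4 were lower at an unadjusted p below 0.05 in that test (median −0.83). The 4 endothelial markers were all below 0, 2 of them at that threshold, and 0 were called. The 4 brown adipocyte markers were all above 0, 1 of them at that threshold. The part of these cells in the members' values was not tested.

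Across the 3 comparisons, which share no libraries, 31 members were tested in each. Of these, 22 (71.0%) had a log2 fold change below 0 in all 3, beside 2731 of 13034 genes (21.0%) tested in all 3. Only Parp9, which works with the ubiquitin ligase Dtx3l and shares 9.40% of its exon bases with it on the opposite strand, had a value above 0 in all 3. The heatmap of the members shows this as a mostly blue field in the KI columns, but WT mice also differed from each other. Chow-fed WT mouse 1 was the highest of its group for 27 members, and chow-fed WT mouse 2 the lowest for 15. BAT WT mouse 1 was the lowest of its group for 19 members. Its member mean of 3.06 log2 CPM lay below the mean of the BAT KI mice (3.13).

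**Figure D5:**
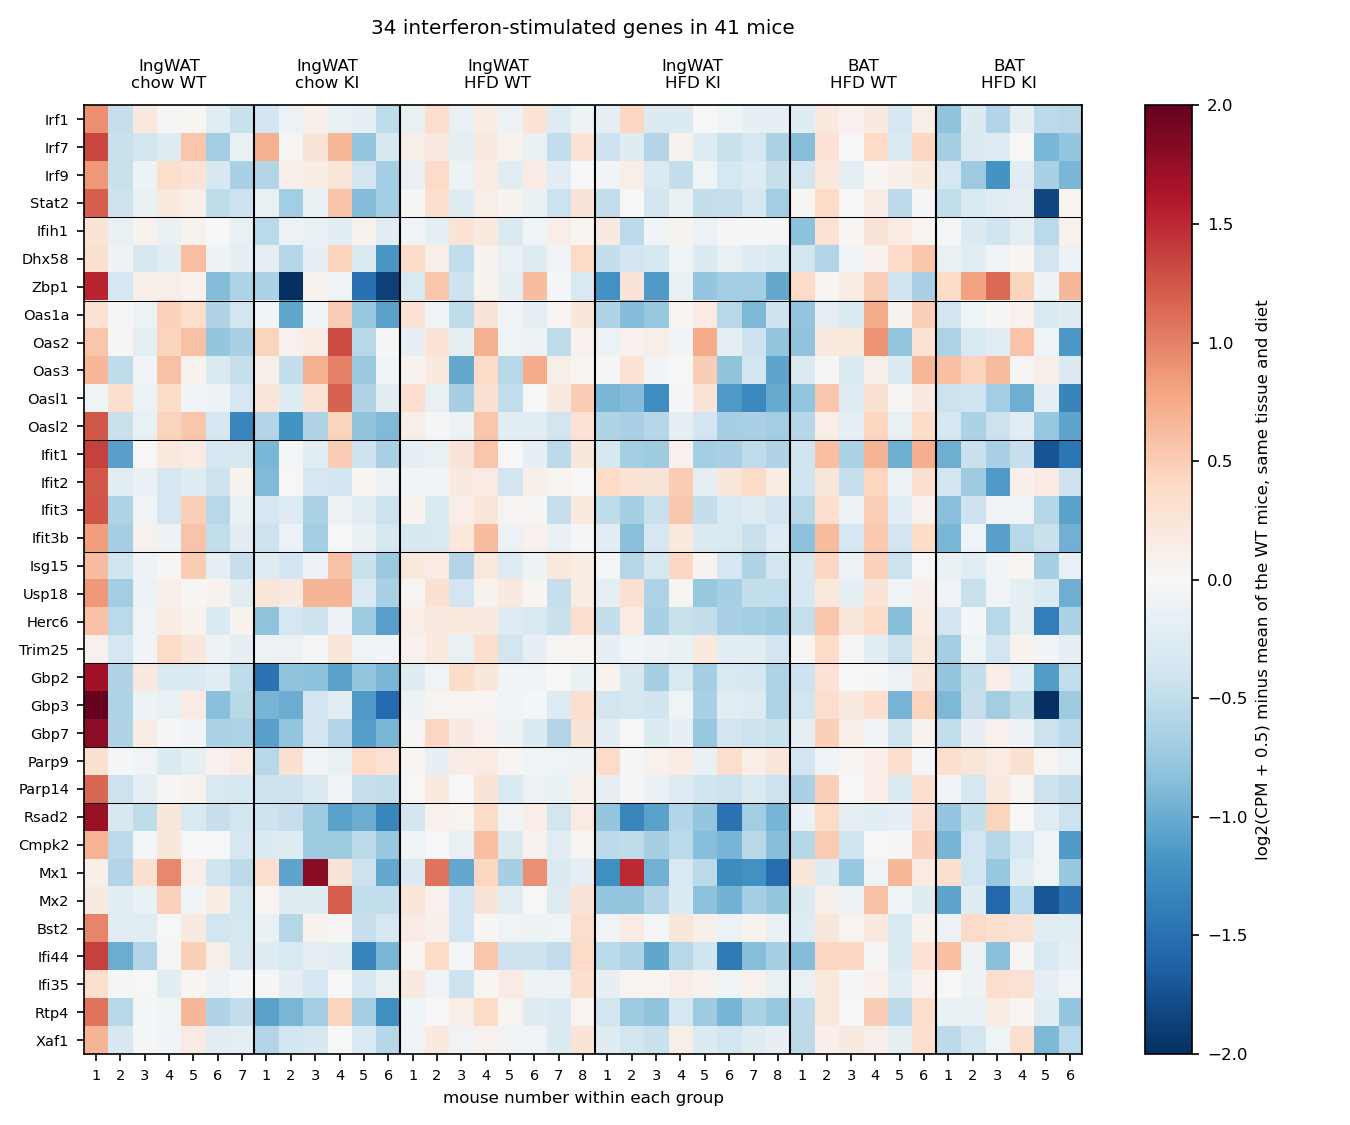
Log2(CPM + 0.5) of the 34 members (rows, grouped by role) in each of 41 mice (columns, by group and mouse number) minus the mean of the WT mice of the same tissue and diet, with red above and blue below that mean and colours clipped at −2 and 2. Most KI columns are mainly blue, and chow-fed WT mouse 1 is red for most members. Chow-fed KI mouse 4 goes the other way, with a member mean of 4.06 log2 CPM beside 3.87 for the chow-fed WT mice.

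Whether the KI effect on the members depended on diet or depot was tested as an interaction. Between HFD and chow in IngWAT, 0 of 34 members were called by edgeR's test and 0 by DESeq2, beside 0.632% of 17400 genes called. At an unadjusted p below 0.05 in edgeR's test there were 2 members in each direction. Of the 17400 genes, 1308 were lower and 1619 higher at that threshold. Mx2 had the smallest adjusted p (0.156), with log2 fold changes of −0.80 on HFD and 0.08 on chow. Between BAT and IngWAT on HFD, 0 of 34 were called by either tool, beside 2.82% of 17214 genes called. In edgeR's test 3 members in each direction had an unadjusted p below 0.05, beside 1871 lower and 1923 higher of the 17214 genes. The smallest adjusted p were those of Zbp1 (difference 1.57 ± 0.47 SE, adjusted p = 0.0389), which was too low to be tested within BAT, and of Rsad2. For Rsad2 the log2 fold change was −0.26 in BAT and −0.96 in IngWAT, a difference of 0.74 ± 0.23 (SE, adjusted p = 0.0490). Whether the BAT and IngWAT samples came from the same mice is not given in the sources used here.

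Single members differed between diets in WT IngWAT, in both directions. Between HFD and chow, 9 of 34 members were called, 6 higher and 3 lower on HFD, beside 12.2% of 16318 genes called higher and 15.4% lower. Taken over both directions, the members' called share was near that of all genes. Mx1, Mx2, Oas2, Oasl1, Cmpk2 and Xaf1 rose, with log2 fold changes from 0.51 to 1.43. The call of Mx1 was lost when HFD WT mouse 2 or 6, both high in B cell markers, was left out, and also without some other single mice. Mx2, for example, stood at 2.72 ± 0.639 CPM on chow (SD, n = 7) and 5.22 ± 0.989 CPM on HFD (SD, n = 8), and Cmpk2 at 10.7 ± 3.26 and 18.7 ± 4.12 CPM. Bst2 (−0.85), Isg15 (−0.68) and Ifi35 (−0.56) fell. Without chow-fed WT mouse 1 the count of called members was 15, among them Rsad2, Ifit1, Ifit2, Ifi44, Oasl2, Irf9, Parp14 and Stat2, while Mx1 and Isg15 were lost. The share of all genes called in that fit is not given here. Diet coincides with the deposited table and with a depth of 8668279 to 11720458 counts per WT mouse on chow against 19835504 to 25680411 on HFD, so diet and library preparation cannot be told apart.

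BAT had lower levels of 17 members than IngWAT in HFD-fed WT mice. Of 34 members, 19 were called, 17 lower and 2 higher in BAT, beside 29.5% of 16271 genes called lower and 27.6% higher. Zbp1 fell most, from 8.85 ± 2.74 CPM in IngWAT (SD, n = 8) to 0.567 ± 0.307 CPM in BAT (SD, n = 6), a log2 fold change of −3.96 ± 0.32 (SE). Mx1 (−3.14), Oas3 (−2.95), Oasl2 (−1.45), Parp9 (−1.07) and Ifit3 (−1.05) fell as well. Isg15 (0.61) and Bst2 (0.52) rose. Macrophage markers were lower in BAT too, with 6 of 7 called (median log2 fold change −1.40), and their part in the members' levels was not tested. Depot, like diet, coincides with the deposited table, so depot and library preparation cannot be told apart. The diet and depot comparisons both use the same 8 WT mice on HFD as the genotype comparison in IngWAT.

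The sensing machinery upstream of these genes was described from a list of 49 genes. In IngWAT on HFD 38 were tested, 0 were called lower and 2 higher, with a median log2 fold change of −0.12. The share called higher was near that of all genes (6.21%). Both called genes encode channels of the mitochondrial outer membrane, Vdac3 (0.37 ± 0.06 SE, adjusted p = 0.000118) and Vdac1 (0.31 ± 0.08, adjusted p = 0.00612). Of the 38, 25 were below 0 and 13 above. At an unadjusted p below 0.05 in edgeR's test, 9 were lower and 5 higher, beside 15.1% of all genes lower and 17.8% higher. All 7 DNA sensing genes tested were below 0 (median −0.43), 3 of them at that threshold. Of 10 genes for release and handling of mitochondrial nucleic acids, 4 were below 0 and 6 above (median 0.08). On chow, where 1.96% of all genes were called higher, 37 were tested and 2 were called higher, Vdac1 (0.59 ± 0.12 SE, adjusted p = 0.00804) and Jak1, a receptor-bound kinase of interferon signalling (0.40 ± 0.08, adjusted p = 0.00833). In BAT, where the share over all genes was 1.36%, 35 were tested and 1 was called higher, Vdac3 (0.61 ± 0.10 SE, adjusted p = 0.00177). At an unadjusted p below 0.05 in edgeR's test, 7 were lower and 4 higher on chow, and 6 and 6 in BAT. Of all genes, 11.5% were lower and 12.8% higher on chow, and 11.7% and 12.8% in BAT. The DNA sensing genes were below 0 for 5 of 6 tested on chow and 4 of 4 in BAT.

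Cgas, Ddx58 and Mavs were not called in KI mice where they were tested, and other genes of the list were too low to be tested or were not analysed here. Cgas, the DNA sensor, averaged 2.30 ± 0.346 CPM for WT and 1.69 ± 0.417 CPM for KI mice in IngWAT on HFD (SD over 8 mice), with a log2 fold change of −0.43 ± 0.17 (SE, adjusted p = 0.0759), and was too low to be tested in BAT. Ddx58, which encodes the RNA sensor RIG-I, had log2 fold changes of −0.28, −0.25 and −0.38 in IngWAT on HFD, IngWAT on chow and BAT. Mavs, its mitochondrial adaptor, had 0.03, 0.08 and 0.19.

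Transcripts of the interferons were almost absent. Of 9 interferon genes listed, 6 had 0 counts in all 41 mice, among them Ifnb1 and 3 alpha interferons, which allows a level of up to 0.373 CPM in the shallowest library and 0.117 CPM in the deepest (3 counts of the total, for counting error only). Ifng, made by T cells and natural killer cells, had at most 12 counts in a mouse.

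Of 41 further interferon-induced genes outside the members, 40 were tested in IngWAT on HFD, and 2 were called lower and 1 higher, with 37 below 0 and a median of −0.26. Neither called share exceeded that of all genes (5.24% lower and 6.21% higher). At an unadjusted p below 0.05 in edgeR's test, 15 were lower and 1 higher, beside 15.1% of all genes lower and 17.8% higher. The medians were −0.44 on chow (40 tested, 1 called lower, beside 1.27% of all genes) and −0.32 in BAT (35 tested, 0 called, beside 0.475% of all genes lower and 1.36% higher). With an unadjusted p below 0.05 in edgeR's test, 13 were lower and 0 higher on chow, and likewise 13 and 0 in BAT. Of all genes, 11.5% were lower and 12.8% higher on chow, and 11.7% and 12.8% in BAT. Ifi27l2a, a small interferon-induced membrane protein, changed more than any member in IngWAT on both diets, but not in BAT. In IngWAT on HFD it ranged from 1296 to 2260 CPM in WT mice (median 1946) and from 75.3 to 218 CPM in KI mice (median 139), a log2 fold change of −3.84 ± 0.20 (SE, adjusted p = 6.25e-10), with no overlap.

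On chow, Ifi27l2a ranged from 640 to 2756 CPM in WT and from 116 to 552 CPM in KI mice, again without overlap, with a log2 fold change of −2.30 ± 0.39 (SE, adjusted p = 0.00239). In BAT it averaged 320 ± 122 CPM for WT and 140 ± 77.8 CPM for KI mice (SD over 6 mice), with −1.22 ± 0.38 (SE, adjusted p = 0.0713). Lgals3bp, a secreted glycoprotein, fell in IngWAT on HFD by 0.69 on the log2 scale (SE 0.11, adjusted p = 0.000163), from 448 ± 79.9 CPM to 276 ± 38.5 CPM. Ifi27 rose there by 0.49 ± 0.08 (SE, adjusted p = 0.000191), from 202 ± 19.2 CPM to 283 ± 31.7 CPM, the opposite direction to Ifi27l2a.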

How the data were processed

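RNA sequencing counts of 3 tables were used, BAT on HFD, IngWAT on HFD and IngWAT on chow, with 41 mouse columns. The deposited values are counts of reads per gene, not normalised. The authors trimmed reads with cutadapt, aligned them with STAR to GRCm38, sorted them with SAMtools and counted with featureCounts, per the labels and the study's methods. Versions, annotation and strand setting are not given in the sources used here, so reads of overlapping genes cannot be assigned with certainty. Of 54838 entries, 1884 that lack a length and a count were dropped and 200 that share a symbol were reduced to 1 per symbol, which left 52853. Some genes of the sensing list are not reported here. The deposited gene lengths gave CPM per kb.

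Each comparison was fitted with edgeR 4.0.16 in R 4.3.3 (TMM, filterByExpr, robust quasi-likelihood), and p-values were adjusted by Benjamini-Hochberg over all genes tested. A gene was called at an adjusted p below 0.01, the study's threshold. CPM shown are on 1 TMM scale over the 41 mice. SE was taken as the size of the log2 fold change divided by the root of its F statistic. Exact permutation tests are two-sided, on log2 CPM (prior count 1). Depth was 8042591 to 25680411 counts per mouse, which limits the lowest members. The scripts were tested on simulated data.

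The members, the gene lists and the choice of genes to name were made with earlier results of these data known. By a fixed rule, values by mouse were given in each genotype comparison for every called member and for the 3 largest rises and 3 largest falls, and from the other lists for called genes and for the main sensors. The alternatives tried were no filter on low counts, DESeq2 1.42.0, size factors by RLE, mitochondrially encoded genes left out, an adjusted p below 0.05, each mouse left out, 1 fit of all groups and a replicate block. Leaving out mice high in B cell or muscle markers was chosen after seeing the data.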

Additional observations from a re-analysis of the deposited data

Results flagged for a closer look

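In 52 groups of mice tested with Dixon's criterion (the member mean in 6 groups and each gene given by mouse), 9 held a mouse that stood apart. Chance gives about 1 in 20 for independent groups not chosen by their values. The genes here share mice and many were named for their large changes, so that rate does not apply to them directly. On HFD in IngWAT the mice that stood apart were KI mouse 4 for Mx2 (4.18 CPM) and WT mouse 4 for Cmpk2 (28.1 CPM). On chow they were WT mouse 1 for Gbp2 (293 CPM), Gbp3 (179 CPM) and Zbp1 (19.8 CPM), KI mouse 4 for Oasl1 (6.18 CPM) and KI mouse 3 for Mx1 (5.25 CPM). In BAT they were WT mouse 4 for Mx2 (4.97 CPM) and KI mouse 5 for Gbp3 (6.09 CPM, the lowest of its group).

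The fall of Ifi27l2a in KI mice differed between depots on HFD. The log2 fold change was −3.84 in IngWAT and −1.22 in BAT, and the interaction was 2.65 ± 0.41 (SE, adjusted p = 0.000137, edgeR's quasi-likelihood test). WT levels differed as well, with 1918 CPM in IngWAT and 320 CPM in BAT. The cause was not tested.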

How the results depend on the processing

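The number of members called in IngWAT on HFD was 14 at an adjusted p below 0.05 and 2 in 1 fit of all 6 groups, against 7, and ran from 5 to 10 with 1 mouse left out. Shares of all genes called under these other settings are not given here. The counts therefore show how the calls move with the setting, not an excess over all genes. On chow it was 1 with DESeq2, 3 in the fit of all 6 groups and 1 with mice high in B cell and muscle markers left out, and 0 to 0 with 1 mouse left out. In BAT it was 3 at an adjusted p below 0.05, 2 with DESeq2, 1 in the fit of all 6 groups and 0 to 0 with 1 mouse left out. The replicate block gave 2 in BAT (Gbp3 and Irf1), 7 in IngWAT on HFD and 0 on chow. Mice of the same number did not deviate together in every pair. Their correlations ran from −0.24 to 0.65 in IngWAT on HFD, −0.27 to 0.17 on chow and −0.08 to 0.42 in BAT. A mouse correlated best with its own number in 1 of 8, 1 of 6 and 3 of 6 cases. Whether a shared number marks a shared cage, litter or batch is not given in the sources used here, and these correlations cannot decide it. The depot interaction gave 2 at an adjusted p below 0.05, and 0 to 0 with 1 mouse left out, as did the diet interaction. Leaving out 1 mouse gave 6 to 15 for diet and 16 to 20 for depot in WT mice. RLE size factors, no low-count filter and mitochondrially encoded genes left out moved no count by over 1.5 times.

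Of 508 alternative log2 fold changes for the 23 pairs of member and comparison given by mouse, 15 changed sign, none of them of a called member. With 1 mouse left out, Bst2 ran from −0.030 to 0.082 in IngWAT on HFD and from −0.0096 to 0.11 in BAT, and Ifi35 from −0.055 to 0.067 in BAT. On chow, Oasl1 ran from −0.12 to 0.37, Oas2 from −0.046 to 0.40 and Mx1 from −0.56 to 0.66. Without mice high in B cell and muscle markers, Oasl1 was −0.39 and Oas2 −0.037, and in the replicate block Mx1 was −0.17. The causes were not tested. The members' median stayed below 0 in all fits, from −0.40 to −0.31 in IngWAT on HFD, −0.48 to −0.11 on chow and −0.55 to −0.34 in BAT. Low members such as Oas3, Mx1 and Zbp1 are limited by depth.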
